A study of Mus musculus with 16 samples.

Results

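Subcutaneous white fat of the groin (inguinal white adipose tissue) was compared between mice given an antibody against PDGFcc and untreated mice, all on control diet. The comparison took the 8 control-diet libraries among the 16 of the study, 4 with antibody and 4 without, chosen by their diet and treatment labels. Of 16091 genes in the deposited table, 14189 passed the filter on low values and were tested, and 1902 did not. In the antibody group, C57BL6/J mice on control diet received anti-PDGFcc (AF1447, R&D) intraperitoneally from 6 weeks of age, 50 mg/kg per dose (volume 100 µl, in PBS), at intervals of 2 days for 2 weeks. The untreated group was C57BL6/J on control diet without antibody, and whether it was injected is not given in the sources used here. A further 4 antibody and 4 untreated libraries came from mice on a high-fat diet, and they served to estimate the spread and for comparison. All groups share the strain and the tissue, and no group carries an engineered allele. The sources used here do not give the length of the diets, the hour of collection or whether each library is a separate animal. The p-values therefore measure only how far these samples spread, and that spread may be technical.

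PDGF-CC is a secreted member of the platelet-derived growth factor family. It is released in a latent form, and proteases such as tissue plasminogen activator (Plat) remove its CUB domain so that it can bind the receptor PDGFRA, alone or paired with PDGFRB. In white fat PDGFRA marks the stromal progenitors that can become adipocytes or matrix-producing fibroblasts, and sustained signalling through it is known to oppose adipocyte differentiation. The series title puts the question whether blocking this ligand raises adipogenic programmes. An antibody acts on the protein, so the RNA of Pdgfc is not a check of the treatment.

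Library totals ranged over 24.02 to 28.15 (in 1e6 normalized counts). The tissue label was met by its markers: Adipoq, the adipocyte hormone adiponectin, lay between 78008 and 92016 normalized counts with antibody and between 80259.6 and 95803 without. The untreated control-diet libraries were the less uniform group. Across genes, log2 values correlated at r = 0.984 to 0.992 among the 4 antibody libraries, against r = 0.954 to 0.982 among the 4 untreated ones, where genes are not independent replicates. The untreated group had the larger SD in 75.4% of 14189 genes. On the first principal component of the 8 libraries, which held 46.7% of their variance, the antibody libraries lay between -31.1 and -10.3, and untreated replicates 1 to 4 lay at -13.1, 0.315, 37.6 and 59.7. Untreated replicates 3 and 4 thus stand apart, and counts without them are given below. Skeletal muscle genes were included in this component. The mean log2 level of those genes was 8.25 and 3.49 in untreated replicates 3 and 4. It was 9.72 and 10.33 in untreated replicates 1 and 2, and 10.41 to 11.85 with antibody. Counts without replicates 3 and 4 therefore also leave out the untreated libraries lowest in muscle RNA. Whether muscle RNA accounts for the position of these replicates was not tested. RNA of skeletal muscle is described separately near the end.

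Few genes passed the threshold of an adjusted p of 0.05. By limma, which fits a linear model with moderated variances, 14 of 14189 genes passed (0.0987%). Among them 8 rose with the antibody (0.0564% of genes tested) and 6 fell (0.0423%), and 5 changed at least 2-fold. The 4 antibody libraries did not overlap the 4 untreated libraries for any of the 14, and across all genes 6.77% did not overlap. The 14 were chosen by p in these same libraries, so their lack of overlap is not separate support. At an unadjusted p under 0.05 stood 1651 genes (11.6%), 898 higher and 753 lower. The median log2 change of all genes was -0.01. Log2 changes here are antibody minus untreated on the scale log2(value + 1), with SE.

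**Figure D1:**
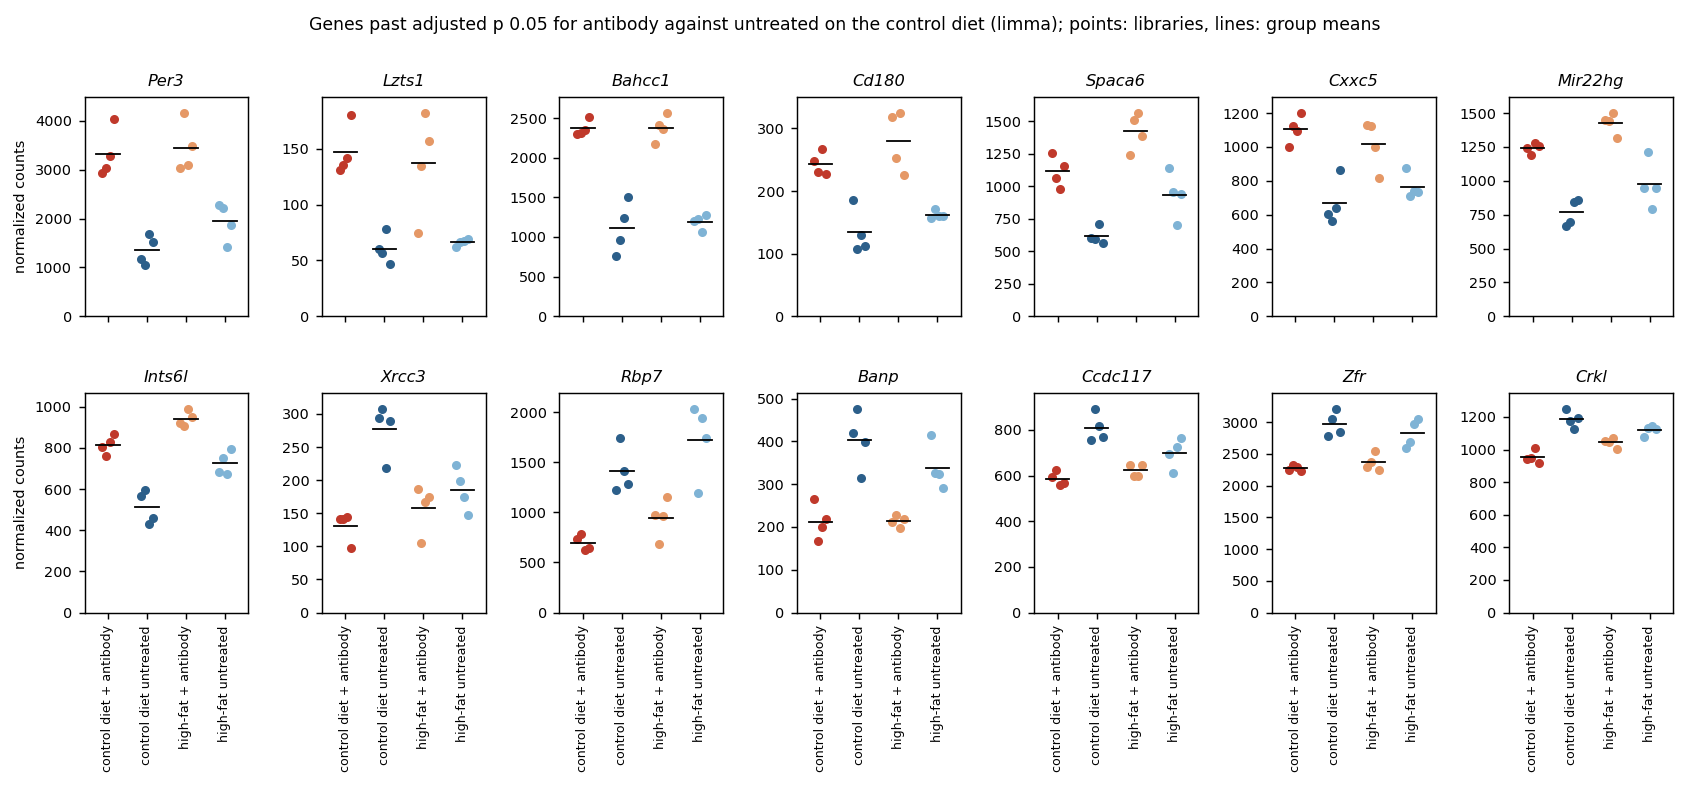
Normalized counts (y axis, from 0) of the 14 genes past an adjusted p of 0.05 for antibody against untreated on control diet, with a point for each library and a line for each mean of 4 libraries; the high-fat groups are shown beside them. In every panel the 4 control-diet antibody libraries (red) lie entirely above or entirely below the 4 untreated ones (dark blue), as for Per3 at 2939 to 4045 against 1058 to 1689.

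Among the 14 genes, the clock gene Per3 had the largest rise. Per3 encodes a period protein, a member of the repressor arm of the circadian clock (ENSMUSG00000028957, GRCm38 chromosome 4, 151003652 to 151044665, minus strand). It was measured at 2939, 3035, 3282 and 4045 normalized counts with antibody, against 1176, 1058, 1689 and 1513 without. Every antibody library was thus above every untreated library. The means were 3325 ± 501 and 1359 ± 293 (SD, n = 4 each), a log2 change of 1.30 ± 0.17 (adjusted p = 0.0125). Its promoter is printed because it carries a pair of D-boxes, the site read by the clock output factors Dbp, Tef and Hlf, which are described below. The window runs from 250 bases before to 50 bases after the start of the RefSeq transcript (GRCm38.p6, chr4:151044616-151044915, minus strand), 5′ to 3′, with the D-box letters TTATGTAA in capitals.
Per3 promoter: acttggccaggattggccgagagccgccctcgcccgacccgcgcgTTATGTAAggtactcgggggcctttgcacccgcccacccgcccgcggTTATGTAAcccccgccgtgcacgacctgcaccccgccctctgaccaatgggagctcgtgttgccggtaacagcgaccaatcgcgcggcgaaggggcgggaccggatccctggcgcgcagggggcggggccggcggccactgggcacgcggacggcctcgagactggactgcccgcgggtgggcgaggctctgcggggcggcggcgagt
D-box letters on either strand were found in 308 of 32851 RefSeq promoter windows of this length (0.938%). A match is a description of the letters only.

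Bahcc1, Cxxc5 and Ints6l rose as well. Bahcc1, a chromatin protein with a BAH domain (ENSMUSG00000039741, chromosome 11, 120232947 to 120292296), had 2305, 2310.5, 2353 and 2513 normalized counts with antibody, against 761, 962, 1236 and 1506 without. The antibody values were tightly grouped, and the untreated values spread about their mean by an SD of 325. The log2 change of Bahcc1 was 1.13 ± 0.15 (adjusted p = 0.0125). Cxxc5, a CXXC zinc finger protein known to restrain Wnt signalling, had 1001, 1123, 1095 and 1201 normalized counts with antibody, against 606, 561, 642 and 865 without (log2 change 0.74 ± 0.13, adjusted p = 0.0454). Ints6l, related to a subunit of the Integrator complex that processes small nuclear RNAs, rose by 0.68 ± 0.10 (adjusted p = 0.0186). Its values were 762 to 866 with antibody and 430.2 to 597 without.

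Mir22hg, the host transcript of the microRNA miR-22 (ENSMUSG00000085148, chromosome 11, 75461539 to 75466676, plus strand), rose as well. It had 1240.2, 1191, 1279.9 and 1254 normalized counts with antibody, against 669.7, 697, 842 and 856 without, a log2 change of 0.70 ± 0.11 (adjusted p = 0.0326). The 2 mature arms encoded in it are shown, from RefSeq (GRCm38.p6), with the seed, bases 2 to 8, in capitals. Poly-A libraries measure the host transcript and not these mature RNAs, whose levels are not analysed here.
mmu-miR-22-5p (chr11:75463734-75463755, plus strand): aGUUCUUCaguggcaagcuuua
mmu-miR-22-3p (chr11:75463772-75463793, plus strand): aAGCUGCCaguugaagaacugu
The arms have different seeds. Exons of Mir22hg overlap Tlcd2 on the same strand, so its value is uncertain to that extent.

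The remaining rises were in genes of varied roles. Lzts1, a leucine zipper protein described as a tumour suppressor, had 131, 136, 142 and 181 normalized counts with antibody, against 59.8, 56.8, 78 and 46.5 without (log2 change 1.29 ± 0.23, adjusted p = 0.0454). Spaca6, known for its part in the fusion of sperm and egg, had 1254, 1065, 978 and 1157 with antibody, against 600.4, 592, 711 and 567 without (0.85 ± 0.13, adjusted p = 0.0326). Cd180, a Toll-like receptor homologue of B cells and macrophages, had 247, 230.1, 266 and 227 with antibody, against 186, 107, 129 and 113 without (0.89 ± 0.16, adjusted p = 0.0454). Exons of Cd180 overlap Mast4 on the opposite strand, and whether reads were counted by strand is not given in the sources used here. Of 20 tested macrophage markers 0 passed, and their summed level was 49950.1 to 70270.1 normalized counts with antibody and 40306 to 82681 without. Of the B cell markers 3 passed the filter on low values, 0 of which passed the threshold.

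Rbp7, a cellular retinol-binding protein of fat capillaries and adipocytes, had the second largest fall among the 6 genes that fell. Rbp7 (ENSMUSG00000028996, chromosome 4, 149449687 to 149454978, minus strand) was measured at 735, 779.7, 620.4 and 645 normalized counts with antibody, against 1225, 1738, 1416 and 1286 without. All 4 antibody libraries lay below all 4 untreated ones. The log2 change was -1.02 ± 0.18 (adjusted p = 0.0454). It is the single member of 17 tested endothelial markers to pass. The endothelial list as a whole had a median log2 change of -0.07 and a summed level of 28532 to 34842 with antibody and 30888 to 37362 without. In bulk tissue, fewer cells of a type and less RNA per cell cannot be told apart.

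The largest fall among these 6 was in Xrcc3, a DNA repair gene of homologous recombination (ENSMUSG00000021287, chromosome 12, 111803192 to 111813873, minus strand). It had 142, 142, 144 and 98.3 normalized counts with antibody, against 295, 307, 219 and 289 without, a log2 change of -1.08 ± 0.19 (adjusted p = 0.0454). Its exons overlap Klc1 on the opposite strand. Banp, a nuclear protein that binds CpG-rich promoters, had 264, 168, 199 and 218 with antibody, against 419.9, 475, 315 and 399.7 without (-0.92 ± 0.15, adjusted p = 0.038). Both falls left no overlap between the groups.

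The other falls were smaller and came from narrow groups. Ccdc117 had 560.3 to 624 normalized counts with antibody and 754 to 890.2 without, a log2 change of -0.46 ± 0.08. Zfr, a zinc finger RNA-binding protein, had 2235 to 2332 with antibody and 2779.8 to 3202 without (-0.38 ± 0.07). Crkl, an adaptor that links tyrosine kinase receptors to downstream signalling, had 941, 950.3, 1008 and 919.9 with antibody, against 1247, 1177, 1124 and 1192 without (-0.31 ± 0.05). These 3 genes had an adjusted p of 0.0454 each.

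Genes just outside the threshold were of similar size. Cpeb1, which binds the tails of messenger RNAs and regulates their translation, had a log2 change of 0.71 ± 0.13 (adjusted p = 0.0631). Prune2 had -1.10 ± 0.20 (adjusted p = 0.063), the glycosyltransferase gene Galnt18 -0.85 ± 0.16 (adjusted p = 0.0632) and the splicing factor gene Tra2b -0.33 ± 0.06 (adjusted p = 0.0646). For each of these 4 the groups did not overlap.

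The calls depend on which libraries share the estimate of spread. With the 8 control-diet libraries alone 0 genes passed by limma, with 1448 at an unadjusted p under 0.05 and a smallest adjusted p of 0.0694. Leaving out antibody replicates 1, 2, 3 and 4 in turn left 3, 3, 0 and 0 genes, and leaving out untreated replicates 1, 2, 3 and 4 left 12, 1, 15 and 32. The high-fat libraries enter through the spread alone, and leaving out each of them gave 3 to 22 genes, apart from 86 without high-fat untreated replicate 2. Without both untreated replicates 3 and 4, 120 genes passed, 78 higher and 42 lower, and 12 of the 14 were among them. Log2 changes of the 14 kept their direction under each of the 21 alternatives computed for single genes. Per3 stayed between 1.19 and 1.56, Bahcc1 between 0.96 and 1.47, and Rbp7 between -1.21 and -0.87.

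The circadian clock list was the set with the largest median change outside skeletal muscle. The clock of each cell is a loop in which Clock or Npas2 pairs with Arntl (BMAL1) to drive genes through E-boxes, among them the Per and Cry repressors and the D-box factors Dbp, Tef and Hlf. Arntl, Npas2, Clock and Nfil3 peak in opposite phase to Dbp, Tef, Hlf and Per3. All 20 listed clock genes were tested, and 1 passed, Per3. At an unadjusted p under 0.05, 11 were higher and 4 lower, against 6.33% and 5.31% of all genes. The median log2 change was 0.50, against -0.01 over all genes. Groups did not overlap for 8 of the 20 above and 1 below, where 3.43% and 3.33% of all genes did not overlap.

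**Figure D2:**
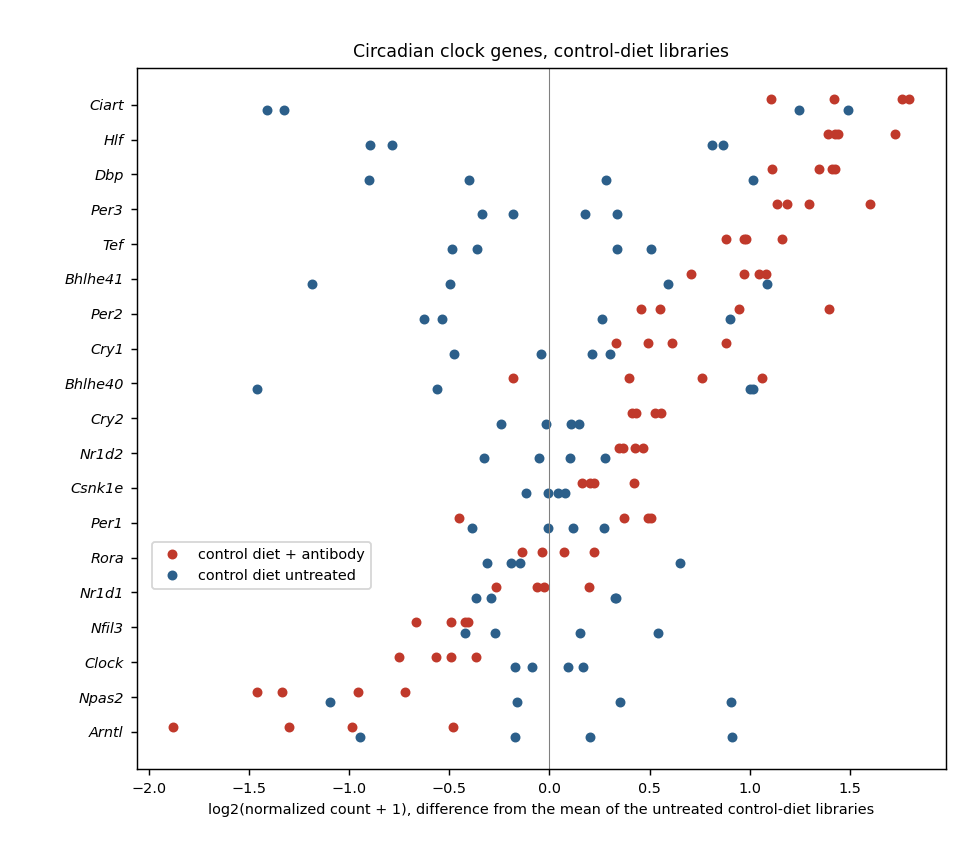
Circadian clock genes described in the text, in the 8 control-diet libraries, each point a library: log2(normalized count + 1) minus the mean of the untreated libraries (x axis), genes ordered by log2 change (y axis). For Hlf the antibody libraries (red) sit close together at 1329 to 1675, and for Arntl they spread more widely. Untreated libraries (blue) are split for Ciart and Hlf, with Hlf at 271 to 924.

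The D-box output factors were higher in the antibody libraries without passing the threshold. Tef had 8968, 8913, 8361 and 10139 normalized counts with antibody, against 3245, 3538, 6454 and 5733 without (log2 change 1.0 ± 0.19, adjusted p = 0.0632). Hlf had 1376, 1358, 1329 and 1675 with antibody, against 271, 293, 924 and 888 without (1.5 ± 0.36, adjusted p = 0.117). Dbp had 4741, 5568, 5886 and 5842 with antibody, against 1176, 1659.8, 2673 and 4439 without (1.32 ± 0.33, adjusted p = 0.119), and its exons overlap Sphk2 on the opposite strand. None of the 3 overlapped between the groups, and in each the untreated replicates 1 and 2 were the lowest.

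The E-box activators had lower means with antibody without passing the threshold. Clock had 1544, 1418, 1348 and 1185 normalized counts with antibody, against 1874, 2125, 2237 and 1767 without, with no overlap (log2 change -0.54 ± 0.11, adjusted p = 0.0729). Arntl had 184, 129, 104 and 69.4 with antibody, against 485, 297, 133 and 229 without (-1.16 ± 0.40, adjusted p = 0.281). Npas2 had 70.2, 59.6, 41.7 and 45.5 with antibody, against 219, 149, 53.9 and 104 without (-1.12 ± 0.37, adjusted p = 0.255). For Arntl and Npas2 the groups overlapped through untreated replicate 3. Nfil3, the repressor at D-boxes, had a log2 change of -0.50 ± 0.19 (adjusted p = 0.327).

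Repressors of the loop differed among themselves. Cry2 had 2529, 2493, 2755 and 2698 normalized counts with antibody, against 1849.8, 1586, 2018 and 2074 without (log2 change 0.48 ± 0.10, adjusted p = 0.0836). Cry1 had 0.58 ± 0.16 (adjusted p = 0.176) and Per2 0.84 ± 0.29 (adjusted p = 0.281). Per1, by contrast, had 0.23 ± 0.23 and the REV-ERB gene Nr1d1 had -0.04 ± 0.22, both with overlapping groups. The paralogue Nr1d2 had 0.40 ± 0.12 and the kinase gene Csnk1e 0.25 ± 0.08, neither overlapping. Ciart, a repressor of Clock and Arntl, had 203, 319, 327 and 252 with antibody, against 36.7, 34.6, 223 and 265 without (1.52 ± 0.57, adjusted p = 0.317). Untreated replicates 1 and 2 were low in Ciart and replicates 3 and 4 were at the level of the antibody libraries. Bhlhe41 and Bhlhe40, repressors at E-boxes, had 0.95 ± 0.40 and 0.51 ± 0.54, and the nuclear receptor gene Rora had 0.03 ± 0.16, all 3 with overlapping groups.

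E-box letters, CACGTG, were found in a RefSeq promoter window of 5 of the 17 clock genes that have an entry. These were Per1, Cry1, Tef, Bhlhe41 and Ciart. D-box letters were found for 1, Per3. Over all 32851 windows of this length 7.15% held the E-box letters, which read the same on both strands. Some clock genes have more than 1 window, so the count by gene and this share are unlike measures. A further Tef window (chr15:81811164-81811463) also holds a match and is not printed. The windows of Tef (GRCm38.p6, chr15:81802423-81802722, plus strand) and Ciart (chr3:95882179-95882478, minus strand) are shown because both genes were among the most changed of the list and their windows hold 1 and 3 matches, here in capitals, 5′ to 3′.
Tef promoter: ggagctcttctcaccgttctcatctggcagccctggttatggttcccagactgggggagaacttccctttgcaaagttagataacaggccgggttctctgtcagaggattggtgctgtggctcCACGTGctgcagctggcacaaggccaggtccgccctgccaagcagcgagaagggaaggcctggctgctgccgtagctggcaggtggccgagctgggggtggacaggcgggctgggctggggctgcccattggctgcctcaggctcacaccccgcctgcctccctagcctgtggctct
Ciart promoter: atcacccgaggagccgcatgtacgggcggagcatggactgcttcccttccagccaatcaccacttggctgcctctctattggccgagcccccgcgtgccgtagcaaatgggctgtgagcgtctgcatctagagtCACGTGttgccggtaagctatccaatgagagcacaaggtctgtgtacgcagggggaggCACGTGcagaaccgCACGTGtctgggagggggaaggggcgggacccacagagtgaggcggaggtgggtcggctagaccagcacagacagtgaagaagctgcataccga
Hlf and Dbp, with changes of like size, have no match in their windows, which says only that these letters are not in these windows.

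The list was recomputed under the other settings. Without untreated replicates 3 and 4, 10 clock genes were higher and 1 lower past the threshold, with a list median of 0.72. Over the 21 alternatives the median stayed between 0.29 and 0.72, with 12 to 18 members at an unadjusted p under 0.05. With the muscle level of each library as a covariate 0 clock genes passed, and Per3 had 1.30 (adjusted p = 0.0608). Transcripts of these genes are known to vary over the day, and at what hour each mouse was sampled is not given in the sources used here.

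Genes that respond to glucocorticoids and to p53 held 2 large decreases just short of the threshold. Zbtb16 (PLZF), a zinc finger transcription factor, had 867, 855, 858 and 1083 normalized counts with antibody, against 1846, 2382, 3654 and 1563 without (log2 change -1.30 ± 0.27, adjusted p = 0.0771). Cdkn1a, the cell cycle inhibitor p21, had 429.7, 344, 368 and 428 with antibody, against 1277, 735, 1100.2 and 689 without (-1.23 ± 0.25, adjusted p = 0.0771). Neither gene overlapped between the groups. Klf15, a further glucocorticoid target with a role in adipocyte differentiation, had 1799, 2136, 2685 and 2067 with antibody, against 2851, 3151, 3058 and 3336 without (-0.53 ± 0.14, adjusted p = 0.139). These 3 were the members of the 19 tested glucocorticoid-responsive genes that were lower at an unadjusted p under 0.05. Of all genes, 5.31% were lower and 6.33% higher at that level. The list median was 0.01. Among the 13 tested genes of cell cycle arrest and p53, Cdkn1a was the single one lower at that level, and Plk2 (0.30 ± 0.12) and Cdkn1c (0.36 ± 0.17) were higher at it.

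The lists of adipogenic factors and of mature adipocyte genes held no gene past the threshold in either direction. Of 17 tested adipogenic transcription factors 0 passed, and the median log2 change was 0.12. At an unadjusted p under 0.05, 3 were higher and 1 lower, against 6.33% and 5.31% of all genes. Pparg, the master regulator of fat cell differentiation, had 7922, 8404, 5278 and 8163 normalized counts with antibody, against 5839, 5470.3, 9341 and 9112 without (0.02 ± 0.25). Cebpa, its partner, had 0.20 ± 0.13. The highest changes were in Zfp467, a zinc finger factor that promotes adipogenesis, at 0.76 ± 0.19 (adjusted p = 0.137), Srebf1, the driver of lipid synthesis genes, at 0.68 ± 0.26 (adjusted p = 0.317) and Gata2, an inhibitor of adipogenesis, at 0.30 ± 0.13. For Zfp467 the 1396 to 1754 normalized counts with antibody did not overlap the 686 to 1294 without. Without untreated replicates 3 and 4, 3 of the 17 passed upward, among them Zfp467 at 1.10 (adjusted p = 0.0174) and Srebf1 at 1.16 (adjusted p = 0.0377). In that setting 78 of all 14189 genes passed upward.

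Mature adipocyte genes had a median log2 change of -0.0046 over 24 tested, with 0 past the threshold and 12 in each direction. Lep, the hormone leptin, had 18389.5, 24176, 20032 and 34730.4 normalized counts with antibody, against 16269.9, 7059, 14863 and 15580.2 without, with no overlap (0.88 ± 0.37, adjusted p = 0.365). Trarg1, a protein of glucose transporter vesicles, had 0.55 ± 0.20 and the imprinted gene Nnat 0.93 ± 0.29. Acvr1c, the receptor ALK7 that curbs fat breakdown, was lower at 3719.7, 3881, 3934 and 3121 with antibody, against 4892, 5594, 6694 and 4189.9 without (-0.53 ± 0.14, adjusted p = 0.151). Adipoq had -0.03 ± 0.11.

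None of the 8 tested ligand, receptor and protease genes of the targeted pathway passed the threshold, and their median log2 change was 0.07. Pdgfc, the target of the antibody, had 491, 583, 651 and 626 normalized counts with antibody, against 909.5, 568, 426 and 505 without (0.02 ± 0.18, adjusted p = 0.986). The untreated libraries spanned both sides of the antibody libraries. Its receptor gene Pdgfra had 2905, 2835, 3083 and 2798 with antibody, against 3818, 2837, 2480.2 and 2370.4 without (0.04 ± 0.16). The co-receptor gene Pdgfrb had 0.23 ± 0.14 and the activating protease gene Plat 0.05 ± 0.24. Plau, the urokinase that is related to Plat, had 0.52 ± 0.22 (adjusted p = 0.383) and the ligand gene Pdgfa 0.32 ± 0.16 (adjusted p = 0.464), both with overlapping groups.

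Genes induced downstream of receptor tyrosine kinases gave no call. Of 11 tested ERK feedback genes, which damp the pathway that induces them, 0 passed, and Spry1 had the smallest p at -0.33 ± 0.13 (adjusted p = 0.34). Of 21 immediate early genes 0 passed and 19 were higher, with a median of 0.22, where 48% of all genes were higher. Nr4a1, an orphan nuclear receptor, had 242, 327, 351 and 269 normalized counts with antibody, against 114, 166, 115 and 109.8 without (1.24 ± 0.42, adjusted p = 0.27). Jun, a subunit of AP-1, had 0.43 ± 0.15 (adjusted p = 0.295), and its exons overlap Junos on the opposite strand.

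Wnt, TGF-beta and BMP signalling genes had 6 of 21 tested higher at an unadjusted p under 0.05, against 6.33% of all genes, and 0 past the threshold. Their median log2 change was 0.22, and 19 of 21 were higher, where 48% of all genes were. Axin2, a feedback inhibitor that Wnt signalling induces, had 770.0, 779, 800.5 and 838 normalized counts with antibody, against 338, 289, 383 and 597 without (1.04 ± 0.23, adjusted p = 0.0916). The antibody libraries lay above all untreated libraries. Inhbb, an activin subunit of adipocytes, had 0.81 ± 0.20 (adjusted p = 0.119) and the ligand gene Tgfb2 0.81 ± 0.21 (adjusted p = 0.139), both without overlap. Without untreated replicates 3 and 4, 2 of the 21 passed, among them Axin2 at 1.35 (adjusted p = 0.0215). In that setting 120 of all 14189 genes passed.

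Stromal and vascular cell lists had medians close to that of all genes. Of 23 tested adipose progenitor genes 0 passed, and the median was 0.08. At an unadjusted p under 0.05, 2 were higher, against 6.33% of all genes. These were Cd24a, a surface marker of early progenitors, at 0.89 ± 0.29 (348, 431, 250.4 and 344 normalized counts with antibody, against 218, 189, 146 and 181 without), and F3, the tissue factor gene, at 0.53 ± 0.18. Of 29 extracellular matrix genes 0 passed at either level, with a median of 0.07. Thbs1, which encodes a matrix protein that activates TGF-beta, had the smallest p of that list (-0.85 ± 0.41). Without untreated replicates 3 and 4 the medians were -0.18 for progenitors and -0.24 for matrix.

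Among mural genes, which mark pericytes and smooth muscle, Cspg4 (NG2) had 6204, 5813, 5361 and 6904 normalized counts with antibody, against 2582, 3786, 4695 and 4655 without (0.66 ± 0.18, adjusted p = 0.16). Kcnj8, a potassium channel gene of pericytes, had 0.59 ± 0.18, and in neither gene did the groups overlap. The mural median over 12 genes was 0.10, and 0 passed. The mural list also holds Des (1.22 ± 0.59), the desmin gene, which striated muscle expresses as well. Egfl7, an endothelial matrix gene, had 2399, 2055, 2255 and 2179 with antibody, against 1646, 1739.7, 1298 and 1799.6 without (0.46 ± 0.11, adjusted p = 0.104).

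Immune lists gave no call. Macrophage genes were higher in 16 of 20, where 48% of all genes were. Their median was 0.11, and 0 of them stood at an unadjusted p under 0.05. Lipid-associated macrophage genes had a median of -0.02 over 16. T and NK cell genes had 0.21 over 11 and MHC class II genes 0.10 over 10, with 0 members of either at an unadjusted p under 0.05. Without untreated replicate 3 the medians were -0.055 for macrophage and -0.098 for MHC class II genes, and without untreated replicates 3 and 4 they were -0.15 and -0.22. Of 12 tested cytokine and chemokine genes Cxcl14, a chemokine of stromal cells, was lower at that level (-0.76 ± 0.29, adjusted p = 0.317). Of 18 interferon-response genes 1 was higher and 1 lower at it, the transcription factor gene Irf1 (0.30 ± 0.13) and the antiviral gene Rsad2 (-0.43 ± 0.16). Of all genes, 6.33% were higher and 5.31% lower at that level.

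None of the metabolic lists held a gene past the threshold. Fatty acid synthesis genes had a median of -0.11 over 21, with Fasn, the fatty acid synthase, at 694428, 577441, 371533 and 409613 normalized counts with antibody, against 278930.0, 470473, 837167 and 752942 without (-0.11 ± 0.40). The untreated values of Fasn reach both below and above all antibody values. All 29 oxidative phosphorylation genes were lower, where 48% of all genes were higher. Their log2 changes ran from -0.22 to -0.01 with a median of -0.12, and 0 of them stood at an unadjusted p under 0.05. Fatty acid oxidation genes had -0.10 over 22 and genes of glucose, fructose and glycogen metabolism -0.11 over 18. Untreated replicate 3 had the highest Fasn value and the largest share of Scd1, the main fatty acid desaturase, at 9.1% of its total.

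The direction of these lists depended on untreated replicates 3 and 4. Without them the median was 0.32 for fatty acid synthesis, 0.31 for fatty acid oxidation, 0.30 for glucose metabolism and 0.25 for oxidative phosphorylation. Of the 20 tested genes of cholesterol biosynthesis and uptake, Fdft1, the squalene synthase, had no overlap between the groups at 1719 to 2384 with antibody and 871 to 1680.0 without (0.70 ± 0.17, adjusted p = 0.117). Nsdhl and Sqle, further enzymes of that pathway, had -0.44 ± 0.19 and -0.55 ± 0.25. G0s2, an inhibitor of the lipase ATGL, had 0.74 ± 0.23 (adjusted p = 0.22), while the beta-3 adrenergic receptor gene Adrb3 had -0.46 ± 0.22 with no overlap. Ucp1, the uncoupling protein of thermogenic adipocytes, varied widely within groups, at 25010.3, 7723, 4505 and 1810.1 with antibody, against 207, 4843, 44771 and 14599 without (0.32 ± 1.96). Prdm16, a regulator of beige fat, had 0.65 ± 0.24 (adjusted p = 0.31).

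**Figure D3:**
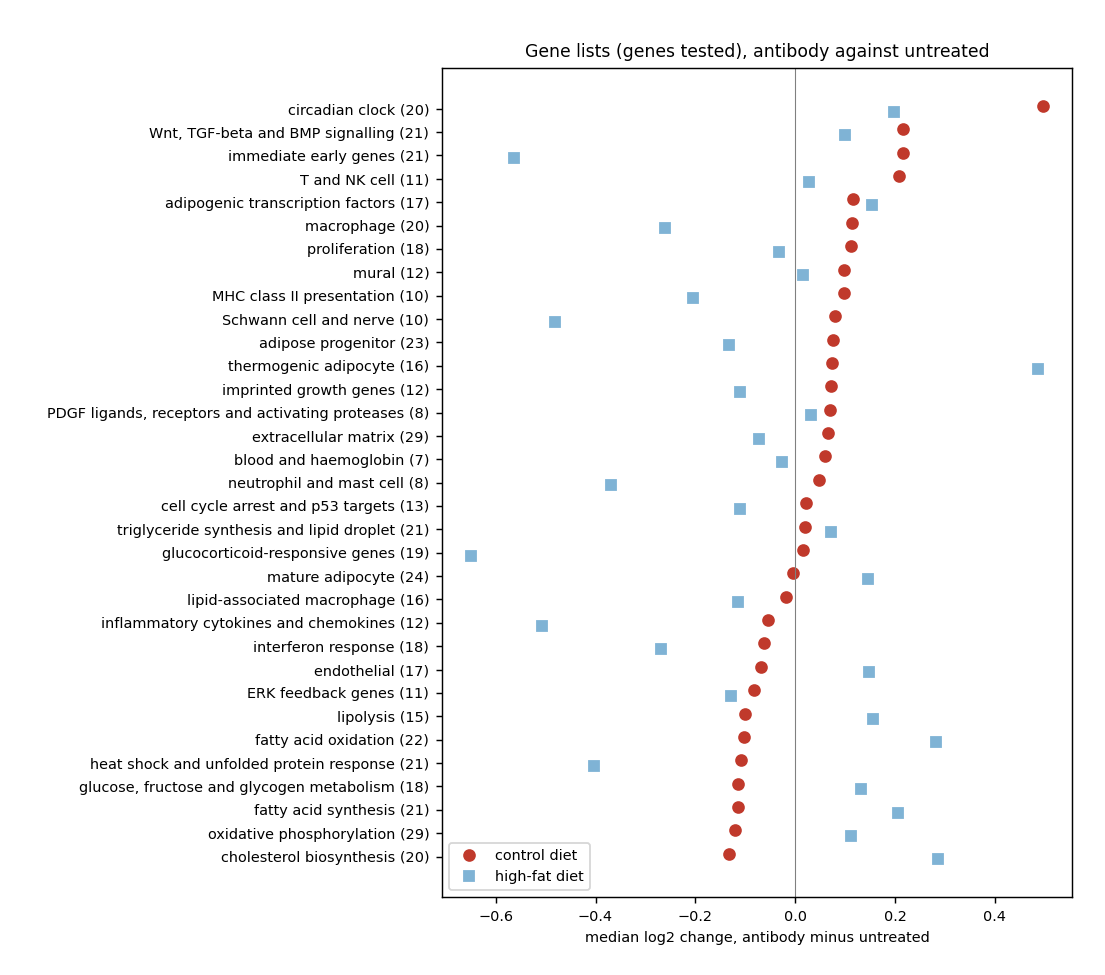
Median log2 change, antibody minus untreated (x axis), of the gene lists with at least 5 genes tested (y axis, number tested in brackets), for control diet (red circles) and high-fat diet (blue squares), without the skeletal muscle list. The circadian clock list lies farthest right on control diet at 0.50, and the other lists lie between -0.13 and 0.22.

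Skeletal muscle RNA was kept apart, since its share differed between the libraries. Inguinal fat lies next to muscle. Transcripts of 24 tested muscle genes made up 1.01, 0.865, 0.203 and 0.797% of the library total with antibody, against 0.146, 0.202, 0.0406 and 0.00665% without. The lowest antibody library and the highest untreated library nearly met. Their summed level was 49894 to 258762 normalized counts with antibody and 1755 to 51281 without. Acta1, skeletal muscle actin, had 31737, 29059, 5982 and 26639.6 with antibody, against 4521, 6439.7, 1477 and 179 without (3.55 ± 1.29, adjusted p = 0.305). Pygm, muscle glycogen phosphorylase, had 3.77 ± 1.21 (adjusted p = 0.236) and Neb, the giant thin filament protein nebulin, 3.65 ± 1.28 (adjusted p = 0.29). Pvalb and Xirp2 were listed at 0 in untreated replicate 4.

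Of the 24 muscle genes 23 were higher with antibody, 19 of them at an unadjusted p under 0.05, and 0 passed the threshold. Their median log2 change was 3.74. Across all genes 48% were higher, and 6.33% were higher at that p. On the high-fat diet 0 of the 24 were higher and the median was -5.10. A further 89 genes followed the muscle level across libraries within groups, at r of 0.8 or more. Among them was the lipid droplet gene Fitm1 at 3.27 ± 1.12 (r = 0.92). Below that r were Nmrk2, a nicotinamide riboside kinase of muscle, at 6.07 ± 1.17 (adjusted p = 0.0646, r = 0.71), and the imprinted gene H19 at 2.36 ± 0.73 (r = 0.74).

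None of the 14 genes past the threshold was in the muscle list or followed it at that r, and their r lay between -0.62 for Cxxc5 and 0.42 for Ints6l. With the muscle list and the muscle-following genes removed, which left 14076 genes, 14 passed, and all 14 were shared. That removal leaves the values of the remaining genes unchanged, so it is not a test of muscle content. With the muscle level of each library as a covariate 4 genes passed, 2 of them among the 14, Bahcc1 at 1.29 (adjusted p = 0.0196) and Cxxc5 at 0.93 (adjusted p = 0.0255).

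**Figure D4:**
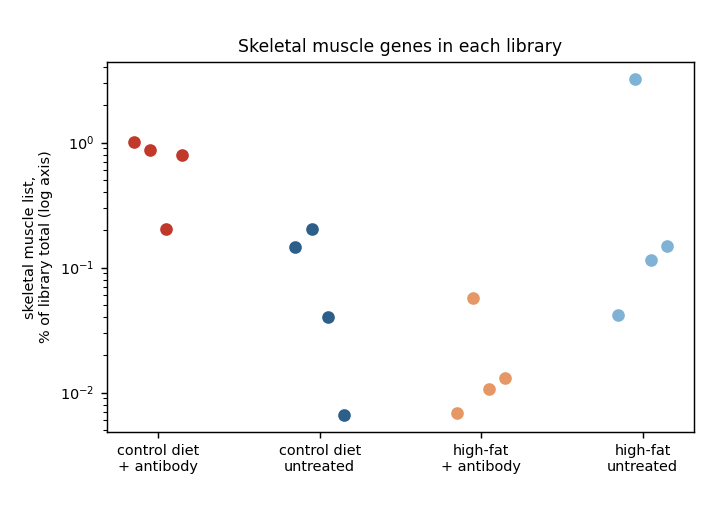
Share of each library's total taken by the skeletal muscle genes (y axis, percent, log axis), by group (x axis), each point a library. Control-diet antibody libraries lie between 0.203% and 1.01%, untreated ones between 0.00665% and 0.202%. On high-fat diet the antibody libraries lie between 0.00687% and 0.0572% and the untreated ones between 0.0418% and 3.21%.

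The 14 genes had the same sign of log2 change on the high-fat diet. The 2 contrasts share no libraries but share the estimate of spread. There, 11 of the 14 had groups that did not overlap (7.38% of all genes on that diet), and 1, Bahcc1, also passed the threshold. Bahcc1 had 2174, 2418, 2357 and 2564 normalized counts with antibody on the high-fat diet, against 1206, 1226, 1062 and 1280.1 without, a log2 change of 1.0 ± 0.15 (adjusted p = 0.0344). Per3 had 3027 to 4163 with antibody and 1412 to 2279.8 without on that diet (0.84 ± 0.17, adjusted p = 0.0661). Rbp7 had -0.87 ± 0.18 (adjusted p = 0.0638) and Mir22hg 0.57 ± 0.11 (adjusted p = 0.0638). For 17 of the 20 clock genes the sign was shared, with a median of 0.20 on the high-fat diet. The share of all genes with the same sign on both diets was not computed.

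**Figure D5:**
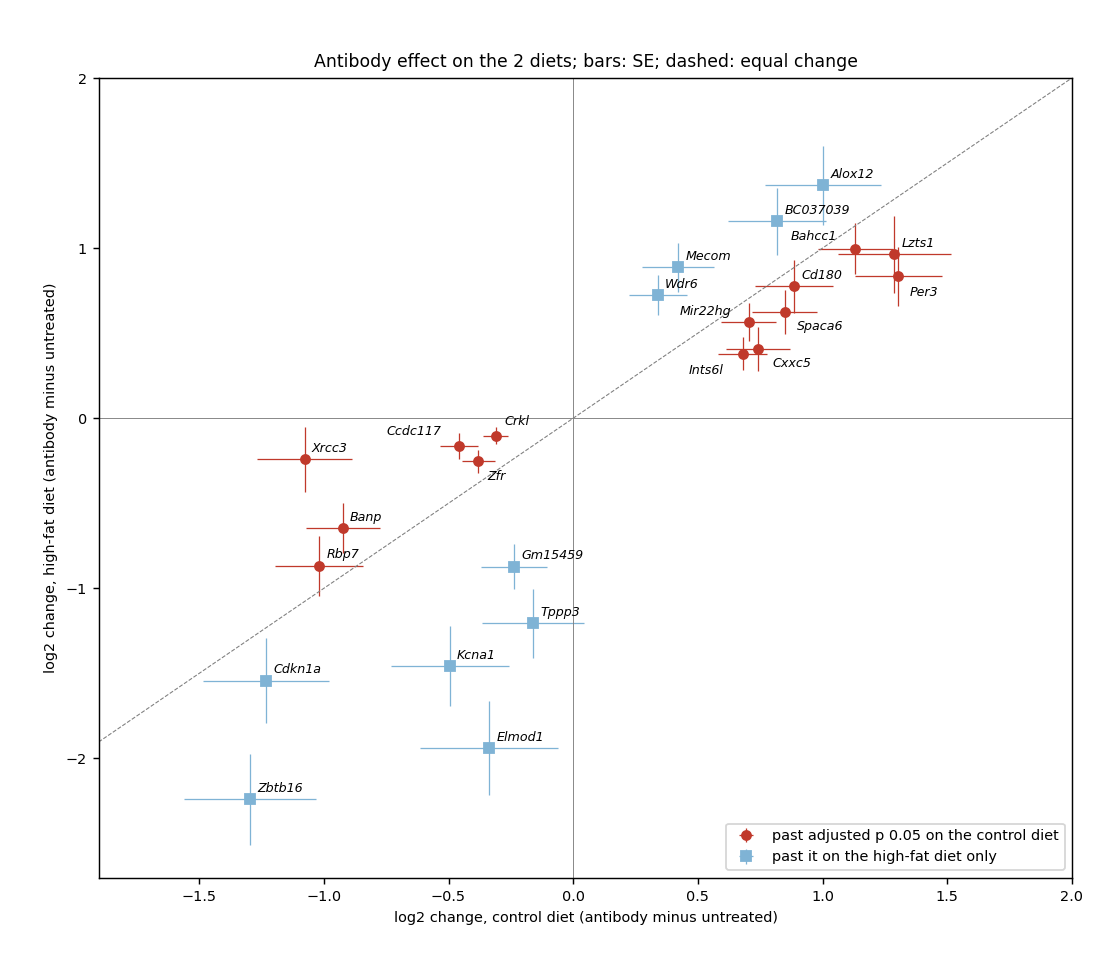
Log2 change, antibody minus untreated, on control diet (x axis) and on high-fat diet (y axis) for the 14 genes past the threshold on control diet (red circles) and the 10 past it on high-fat diet alone (blue squares), with SE bars and a dashed line of equal change. All 24 genes lie in the lower left or upper right corner. Among those far from the line are Elmod1 at -0.34 against -1.94, Tppp3 at -0.16 against -1.21 and Xrcc3 at -1.08 against -0.24.

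In the other direction, 11 genes passed on the high-fat diet (0.0775%), and all 11 had the same sign on control diet. On control diet 7 of the 11 had groups that did not overlap, against 6.77% of all genes. Zbtb16 was the largest of them at -2.24 ± 0.27 on the high-fat diet, against -1.30 ± 0.27 on control diet. Alox12, a lipoxygenase gene, had 113, 64.8, 72.2 and 72.4 normalized counts with antibody on control diet, against 32.2, 47.1, 32.6 and 45.5 without (1.0 ± 0.23, adjusted p = 0.108). Tppp3, a tubulin polymerization-promoting protein, had -0.16 ± 0.20 on control diet and -1.21 ± 0.20 on high-fat diet. Elmod1 had -0.34 ± 0.28 and -1.94 ± 0.28 on the same pair of diets.

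The difference of the antibody effect between diets was tested for every gene and passed by limma for 0 of 14189, with 877 (6.18%) at an unadjusted p under 0.05 and a smallest adjusted p of 0.264. Nr4a1 had 1.24 ± 0.42 on control diet and -1.60 ± 0.42 on high-fat diet (unadjusted p = 0.000238 for the difference). Of the 21 immediate early genes 1 was higher with antibody on the high-fat diet, with a median of -0.56, and 8 stood at an unadjusted p under 0.05 for the difference. Hoxa2, a homeobox gene, had 43.8, 56.5, 56.7 and 45.5 normalized counts with antibody on control diet, against 31.4, 28.9, 27.3 and 29.7 without (0.76 ± 0.17), and -0.27 ± 0.17 on high-fat diet. Lysmd4 had -0.41 ± 0.08 on control diet and 0.12 ± 0.08 on high-fat diet. Nmrk2, Xirp1 and Alpk3 also led by p, and their r with the muscle level was 0.71, 0.75 and 0.79. Chaf1a, Sap130, Plekhm1 and Exd1 had -0.09, -0.29, -0.15 and -0.35 on control diet and 0.50, 0.17, 0.16 and 0.31 on high-fat diet.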

How the data were processed

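Per the labels' protocols, TRIzol and a kit for lipid-rich tissue yielded the RNA of inguinal fat, and its poly-A fraction was sequenced from stranded libraries. The submitters' processing notes name limma 3.42.2, Subread 1.6.2 with featureCounts, STAR 2.7.0e and fastp 0.20.1, and the builds mm10 and GRCm38, with no role or order given. Each value in the deposited table is a linear signal that the authors call normalized counts, and how it was normalized is not stated in the sources. The values are fractional and gave back no whole reads, so the read depth and its counting error are unknown and no count model was run.

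Values were converted to log2(value + 1), which understates the change of low genes. Genes above 24.49 normalized counts, the value that stood for 1 CPM, in at least 4 of 16 libraries were tested. A linear model of the 4 group means was estimated by limma 3.58.1 (R 4.3.3) from the 16 libraries (moderated variances with a trend, residual degrees of freedom 12, prior 3.07), two-sided, with Benjamini-Hochberg adjustment over 14189 genes. The text draws its genes from the 10 each way largest in size past the threshold, filled by smallest p, up to 4 of each list by smallest p (6 for muscle), 5 each way for the difference between diets, and a fixed set (Lep, Adipoq, Fasn, Ucp1, Cebpa, Pparg, Plat, Pdgfrb, Pdgfra, Pdgfc). The other clock genes, Alox12, Tppp3, Elmod1, Pvalb, Xirp2 and Scd1 were added after their values were seen. All genes and lists were chosen with earlier results of these data known. On simulated data of this contrast (14189 genes), changes of 0.5, 1, 2 and 3 on the log2 scale were recovered in 48, 80, 98 and 96% of 50 genes each, with 8 false calls. The simulation used independent noise and gave each gene the same SD in all groups. In the data the median log2 SD was 0.224 in the untreated and 0.141 in the antibody control-diet group, so these rates may not carry over. Alternatives changed the pseudocount, filter, scaling, variance model, weights, covariates and libraries used. Coordinates are from GENCODE vM21, in which 14185 gene IDs were found. Of 175 gene entries named, 19 share exon sequence with another gene on the opposite strand, among them Srebf1, Nnat, Fdft1, Egfl7, Pfkp, Adrb3, Pdgfa, Lysmd4, Chaf1a and Nmrk2. Promoter and microRNA sequences are from RefSeq (GRCm38.p6). Some members of the lists are counted but their values are not reported here.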

Additional observations from a re-analysis of the deposited data

Results flagged for a closer look

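Among 138 groups of 4 values examined on control diet, 10 held a library far from the other 3 by Dixon's test, where chance gives about 1 in 20. Xrcc3 in antibody replicate 4 was 98.3 normalized counts, against 142 to 144 in the other antibody libraries. Pparg in antibody replicate 3 was 5278, against 7922 to 8404. Lep in untreated replicate 2 was 7059, against 14863 to 16270 in the other untreated libraries.

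The mean log2 level of a gene list stood apart in 7 cases, all in antibody libraries. Antibody replicate 4 was high for the PDGF ligands, receptors and proteases at 10.05, for mature adipocyte genes at 15.32 and for proliferation genes at 7.14. Antibody replicate 3 was low for cholesterol biosynthesis at 9.51 and for skeletal muscle at 10.41. Antibody replicate 2 was low for Schwann cell and nerve genes at 8.39, and antibody replicate 1 was low for genes of cell cycle arrest and p53 at 9.70.

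Fitm1, a lipid droplet gene, lay above the untreated libraries with antibody in all 4 control-diet libraries and below them in all 4 high-fat libraries, with a difference of log2 changes of 6.82. The limma test of this difference gave an unadjusted p of 0.000626 and an adjusted p of 0.264. Fitm1 followed the muscle level at r = 0.92, and the muscle list had median log2 changes of 3.74 on control diet and -5.10 on high-fat diet.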

How the results depend on the processing

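The count of 14 genes moved to 0 with the 8 control-diet libraries alone, 3 with array weights by group, 757 with array weights by library, 4 with the muscle level as a covariate, 3 without a variance trend and 120 without untreated replicates 3 and 4, a setting added after seeing the data. The weights by library gave untreated control-diet replicate 2 a weight of 3.77, against 0.385, 0.280 and 0.660 for replicates 1, 3 and 4. With a replicate block on the 8 libraries the count was 0, with 1024 genes at an unadjusted p under 0.05. Deviations of same-numbered control-diet libraries correlated at -0.31, 0.13, -0.23 and -0.27, and those of high-fat libraries at 0.18, 0.47, -0.06 and -0.22. These values cannot decide whether the numbers pair libraries. Leaving out each of the 8 control-diet libraries in turn gave 0 to 32 genes, and leaving out each of the 8 high-fat libraries, added after seeing the data, gave 3 to 86, the highest without high-fat untreated replicate 2. It was 12 with a pseudocount of 25, 19 with quantile normalization and 14 with TMM scaling, no filter, a robust trend or muscle genes removed. The difference between diets stayed at 0 genes under the other settings, the replicate block within diet included, apart from 1 without high-fat untreated replicate 1 (range 0 to 1). The causes were not tested.

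Of the log2 changes of named genes under the alternatives, 3174 kept direction and side of the threshold, 63 passed it newly, 146 no longer passed and 96, in 38 genes, changed sign, with 0 of these past the threshold. Without untreated replicates 3 and 4 the log2 changes that turned were Acads 0.13, Alas2 0.12, Atp5b 0.16, Atp5c1 0.070, Cd79b -0.14, Csf3r -0.14, Ctsd 0.038, Ech1 0.034, Eif2s3y 0.031, Etfa 0.093, Etfdh 0.31, Fabp5 0.082, Fasn 0.46, H2-Ab1 -0.19, H2-DMb1 -0.015, Ighm -0.22, Itgax -0.11, Krt19 -0.54, Letm1 0.25, Lrrn4 0.21, Mag -0.23, Mbp -0.091, Mrc1 -0.11, Ndufv1 0.24, Pdgfc -0.30, Pdgfd -0.021, Pdgfra -0.18, Pdgfrb -0.019, Plat -0.37, Sdhc 0.13 and Slc36a2 0.15. With the muscle covariate they were Alas2 0.041, Cd79b -0.0053, Fasn 0.16, Ighm -0.058, Krt19 -0.37, Lrrn4 0.072, Pdgfc -0.060, Pdgfra -0.099, Plat -0.070, Sdhc 0.0057 and Slc36a2 0.068. With array weights by library they were Cd79b -0.046, Fasn 0.00085, Krt19 -0.20 and Plat -0.032. With quantile normalization they were Adipoq 0.036, Cd79b -0.060, Krt19 -0.14 and Pdgfc -0.0061. With TMM scaling it was Kdm5d 0.00064. With each control-diet library left out in turn, the log2 change of Adipoq ranged over -0.074 to 0.019, Alas2 over -0.35 to 0.056, Cd79b over -0.057 to 0.32, Csf3r over -0.018 to 0.45, Ddx3y over -0.080 to 0.097, Etfdh over -0.54 to 0.099, Fasn over -0.42 to 0.10, H2-Ab1 over -0.073 to 0.37, Hbb-bt over -0.064 to 0.23, Kdm5d over -0.093 to 0.052, Krt19 over -0.21 to 0.29, Letm1 over -0.50 to 0.0059, Lrrn4 over -0.21 to 0.11, Ndufv1 over -0.47 to 0.0085, Pdgfc over -0.13 to 0.24, Pdgfra over -0.045 to 0.18, Plat over -0.15 to 0.30, Pparg over -0.11 to 0.18, Trp63 over -0.24 to 0.053 and Ucp1 over -1.22 to 1.36. Without untreated replicates 3 and 4 the medians of 20 of 38 gene lists changed sign, without untreated replicate 3 those of 15 and with the muscle covariate those of 13. Depth is unknown, so the precision of low genes could not be given.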

Other observations

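Other gene groups gave 0 calls on control diet. Of 18 tested proliferation genes the median log2 change was 0.11, and Tyms, the thymidylate synthase, had 121, 117, 128 and 122 normalized counts with antibody, against 159.6, 158, 138 and 188 without (-0.39 ± 0.12, adjusted p = 0.225). Of 21 genes of heat shock and the unfolded protein response the median was -0.11, and the chaperone gene Hsph1 had -0.54 ± 0.23 (adjusted p = 0.376). Its antibody libraries lay at 800.1 to 1190.0 and its untreated libraries at 956 to 2007.

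Triglyceride synthesis and lipid droplet genes had a median of 0.02 over 21 and lipolysis genes -0.10 over 15. Imprinted growth genes had 0.07 over 12, with Mest, a marker of adipose expansion, at 2750.5, 2211, 1983 and 7665 with antibody, against 3581, 1419, 847 and 1264 without (1.02 ± 0.56, adjusted p = 0.512). Schwann cell and nerve genes had 0.08 over 10 and haemoglobin and platelet genes 0.06 over 7. Neutrophil and mast cell genes had 0.05 over 8, and the 3 epithelial genes tested had -0.08.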
